A study of Mus musculus with 6 samples.

Results

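Axon guidance ligands and receptors were compared between 2 fractions of sorted cells from the neonatal mouse cerebellum. The rule that chose the genes reads the symbol and no measured value, although it was written with earlier results of these data known. They are the semaphorins of classes 3 to 7 with their plexin and neuropilin receptors, the Slits with the Robos, the netrins with Dcc and the Unc5 receptors, and the ephrins with the Eph receptors. On the array, 69 of 23823 gene symbols belong to these families, with 100 of 55681 probes. There are 20 semaphorins, 9 plexins, 2 neuropilins, 3 Slits, 4 Robos, 4 netrins, Dcc with 4 Unc5 receptors, 5 ephrin-A ligands, 9 EphA receptors, 3 ephrin-B ligands and 5 EphB receptors.

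Both groups were wild-type mice, of the CD1 strain by the sample labels, whereas the methods of the study name a C57BL/6 background for its wild-type mice. There were 50000 cells per sample and 3 biological replicates per group. The sample labels give the age as postnatal days 1 to 3, whereas the methods of the study give an earlier age that overlaps with it at day 1. Cerebella of either sex were pooled before the cells were dissociated, so a replicate is a pool of animals. A+/G+ cells carry ACSA-2, an astrocyte surface antigen encoded by Atp1b2, and GLAST, the glutamate transporter encoded by Slc1a3. They were taken in a single step with anti-ACSA-2 beads. A-/G+ cells carry GLAST without ACSA-2. For these, cells with L1CAM, ACSA-2, CD45, PSA-NCAM or Ter119 were first removed and the cells with GLAST were then selected, so that neurons, leukocytes and erythroid cells were depleted from the A-/G+ fraction but not by a like step from the A+/G+ fraction.

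Guidance molecules steer growing axons and migrating cells. Slits are secreted proteins that mostly repel cells bearing Robo receptors, while netrins attract through Dcc and can repel through the Unc5 receptors. Secreted class 3 semaphorins act through neuropilins with A-type plexins, and most membrane-bound semaphorins bind plexins directly. Ephrins and Eph receptors sit on opposing cells and can signal in both directions, with ephrin-A ligands anchored by a lipid and ephrin-B ligands spanning the membrane. In the developing cerebellum these families are known for the layering of granule cells and for the patterning of afferent fibers, and glia express several of them.

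Levels were read from probes of 60 bases, and the sequence of a probe decides what its signal can show. The first 30 bases are given for the probes of Slit1 and Robo1, the genes that met both limits of the test described below. The Slit1 probe lies at chr19:41674749-41674808 and the Robo1 probe at chr16:73046190-73046249 (mm9, listed on the minus and the plus strand), and neither holds a long repeat.
Slit1: gccatgccctctctcaaagtgccttgcaca
Robo1: cagttctaagggaacaatccacgtgattaa

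The brightest Epha5 probe, at chr5:84487348-84487407, holds a run of 20 bases in which G and T alternate. The other Epha5 probes, probe 2 at chr5:84483837-84483896 and probe 3 at chr5:84494886-84494945, do not (all listed on the minus strand). Stretches of 30 bases are given for these probes because their values go in opposite directions, and capitals mark the G and T run.
Epha5 probe 1: gaaatTGTGTGTGTGTGTGTGTGTGcgtgc
Epha5 probe 2: gttcccatctgcatttgtttgtgctttcag
Epha5 probe 3: gtaccatttattacctataaatatcatagt

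Such a run, of at least 16 bases, was found in 4 of the 100 probes of the guidance families, and each is the brightest probe of its gene. The others are those of Sema4c at chr1:36605998-36606057 (minus strand) with 23 bases, Sema6d at chr2:124491609-124491668 (plus strand) with 20 bases and Ephb3 at chr16:21223165-21223224 (plus strand) with 33 bases. Capitals again mark the run, which for Ephb3 continues past the stretch shown.
Sema4c: aaTGTGTGTGTGTGTGTGTGTGTGTtgtaa
Sema6d: agaggggcgaGTGTGTGTGTGTGTGTGTGT
Ephb3: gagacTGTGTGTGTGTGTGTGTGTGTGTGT

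Each sample was hybridized to 1 array, and values are log2 intensities after quantile normalization, a step that gives all arrays the same distribution. A difference is the mean of A+/G+ less the mean of A-/G+, in log2 units. A probe was taken as detected on an array where the scanner software marked it as well above background. Detected probes numbered 26476 to 26655 per A+/G+ array, and 18340, 21416 and 24730 in A-/G+ replicates 1, 2 and 3. Slide 1 held the A+/G+ arrays and slide 2 the A-/G+ arrays, so slide and fraction cannot be told apart. Atp1b2 was higher in A+/G+ by 2.16 (SE 0.18, adjusted p = 0.00725, limma), whereas Slc1a3, at 13.26, 13.31 and 13.61 against 14.85, 14.92 and 14.00, missed the limit (adjusted p = 0.0733, limma). L1cam, whose protein was used for depletion, lay between 5.64 and 5.96 in A+/G+ and at 2.30, 2.84 and 4.79 in A-/G+. All 12 genes of a general astrocyte list were detected on every array, and how they differed is given with the other cell type lists. The sorted samples are mixtures, so fewer cells of a type and less RNA per cell cannot be told apart in any value below.

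Most of the guidance genes were detected. Well above background on all 3 arrays were 64 of the 69 genes in A+/G+ and 47 in A-/G+, and 3 genes (Ntn5, Sema3e and Unc5d) were on none of the 6 arrays. A gene passed the test when its Benjamini-Hochberg adjusted p from limma, over all probes of the array, was at most 0.05, and it was called when the medians of the fractions were also at least 4-fold apart. In A+/G+, 10 guidance genes were higher and passed, compared with 7.54% of all gene symbols, and in A-/G+ 5 genes were higher and passed, compared with 5.10%. Both limits were met by Slit1 and Robo1 in A+/G+ (2 of 69, against 2.64% of all gene symbols) and by none in A-/G+ (0 of 69 in limma, against 0.437%), where the medians lay at most 2.64-fold apart. The calls of Slit1 and Robo1 were each lost under some settings. Slit1 did not pass in the methods' t-test (adjusted p = 0.0689). Robo1 passed but its medians lay less than 4-fold apart with normexp background correction and with the mean of its probes. Its differences of means were then 1.31 and 1.53 log2 units. At an unadjusted p under 0.05, 21 guidance genes lay toward A+/G+, against 16.4% of all gene symbols, and 11 toward A-/G+, against 13.9%. In all, 21.7% of the guidance genes passed, against 12.6% of all gene symbols. Among the genes detected on all 6 arrays these shares were 25.5% (12 of 47) and 18.9% of 11256.

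**Figure D1:**
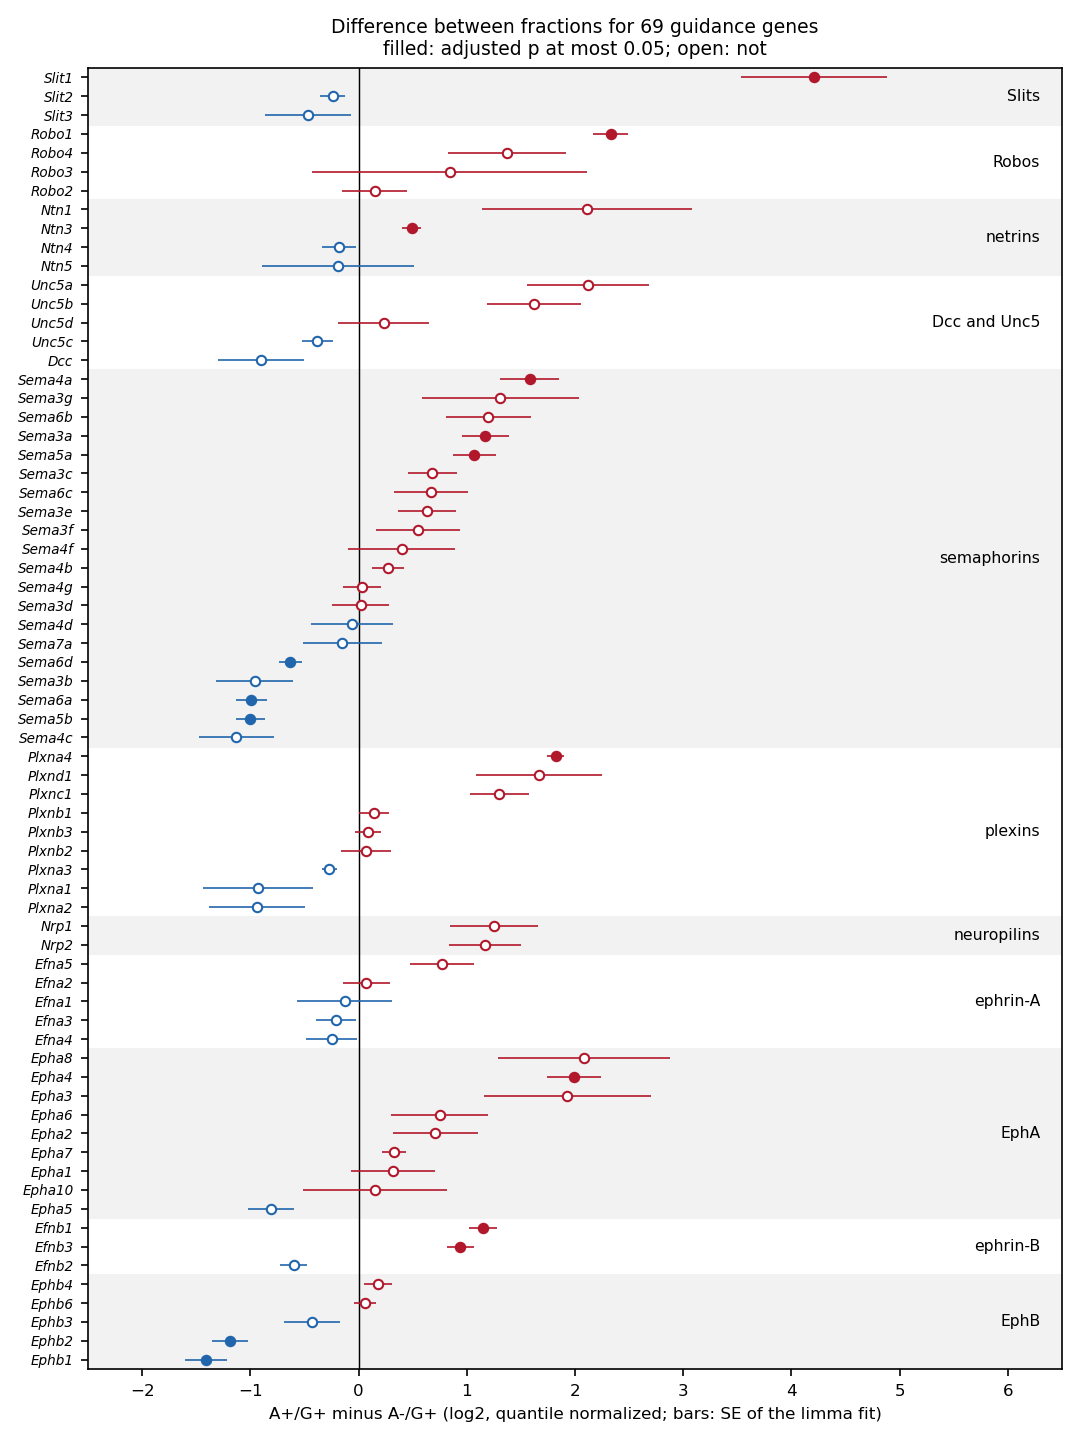
Difference between the fractions for each of the 69 genes, on the horizontal axis as log2 units, positive where A+/G+ was higher, with the standard error of the limma fit, grouped by family. Filled points have an adjusted p of at most 0.05, and Slit1 at 4.21 and Robo1 at 2.33 lie farthest to the right among them.

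Among the guidance genes, 45 lay higher in A+/G+ and the other 24 in A-/G+, and the median over them was 0.23, compared with -0.03 over all gene symbols. This split moved with the scaling. When a shift of the arrays to a common 75th percentile replaced the quantile step, the median of all gene symbols moved to -0.39 and that of the guidance genes to 0.04, with 39 genes on the A+/G+ side and 30 on the other. The genes that changed side were Epha6, Epha10, Plxnb2, Sema3d, Sema3e and Unc5d, none of which passed the test.

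Slit1 and Robo1, a repellent ligand and a receptor of the same system, were both higher in A+/G+. Slit1 measured 9.26, 9.03 and 8.95 in A+/G+ and 5.35, 3.41 and 5.85 in A-/G+. In A-/G+ it was detected on replicate 3 alone, so the lower level rests on signals near background. The medians lay 12.8-fold apart and the difference was 4.21 (SE 0.675, adjusted p = 0.0283, limma). Robo1 measured 7.73, 7.55 and 7.38 in A+/G+ and 5.10, 5.05 and 5.50 in A-/G+, and was likewise detected on 1 A-/G+ array. Its difference was 2.33 (SE 0.163, adjusted p = 0.00516, limma) and the medians lay 5.45-fold apart. For both genes no A-/G+ array reached the A+/G+ arrays, which in an exact two-sided permutation test of 3 arrays against 3 gives p = 0.1, the smallest possible. A second, dimmer Robo1 probe was detected on 1 A+/G+ array and on no A-/G+ array, and gave 0.73 (adjusted p = 0.492, limma).

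The remaining ligands and receptors of this system did not pass. Slit2 measured 6.66, 6.40 and 6.49 in A+/G+ and 6.58, 6.82 and 6.87 in A-/G+ (difference -0.24, SE 0.114, adjusted p = 0.304, limma). Slit3 lay between 4.88 and 5.96 in A+/G+ and between 5.27 and 6.20 in A-/G+ (difference -0.47, adjusted p = 0.55, limma). For both, the arrays of the fractions overlapped. Robo2, a receptor for Slits on many neurons, overlapped between the fractions at 7.64, 7.44 and 7.16 against 7.46, 6.68 and 7.65. Robo3, a receptor of commissural axons, ranged from 1.86 to 6.45 over the A-/G+ arrays and was detected on 1 of them, and Robo4, a Robo of endothelial cells, is described with replicate 3 below.

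Of the netrins, Ntn3 was slightly higher in A+/G+ and passed. It measured 8.21, 8.37 and 8.24 against 7.77, 7.67 and 7.89, which is a difference of 0.49 (SE 0.0861, adjusted p = 0.0343, limma). Ntn1, the netrin of the ventral midline and of many developing tracts, measured 5.95, 5.67 and 6.11 in A+/G+ and 4.11, 1.81 and 5.48 in A-/G+, where it was detected on 1 array. The groups did not overlap, but the A-/G+ arrays were widely spread, and its difference of 2.11 (SE 0.971) did not pass (adjusted p = 0.294, limma). Its second probe gave 2.75 (adjusted p = 0.0991, limma). Ntn4, a netrin that binds laminins, gave -0.18 and overlapped between the fractions.

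No netrin receptor passed in limma, while 3 of the 5 had an unadjusted p under 0.05. Unc5a measured 8.25, 7.82 and 7.68 in A+/G+ and 4.93, 5.52 and 6.94 in A-/G+, a difference of 2.12 (adjusted p = 0.0907, limma). Unc5b measured 9.39, 9.13 and 9.21 in A+/G+ and 7.35, 6.97 and 8.55 in A-/G+, a difference of 1.62 (adjusted p = 0.0944, limma). For both, A-/G+ replicate 3 was nearest to the A+/G+ arrays. Unc5c, known in the cerebellum for the boundaries that granule cell precursors respect, went the other way, at 9.24, 9.19 and 8.81 against 9.33, 9.50 and 9.56 (difference -0.38, adjusted p = 0.201, limma). Its second probe, dimmer but detected on all 6 arrays, gave -0.77 (adjusted p = 0.0479, limma). Dcc, the attractive netrin receptor, has 3 probes that cannot be read together. The brightest is listed at chr7:68417162-68417221 and measured 12.22 to 13.02 in A+/G+ and 12.80 to 14.06 in A-/G+ (adjusted p = 0.27, limma). The other probes are listed on chromosome 18, where RefSeq places Dcc. Of these, the brighter measured 5.63, 5.89 and 5.41 in A+/G+ and 6.25, 6.70 and 7.01 in A-/G+ (difference -1.01, adjusted p = 0.0703, limma), and the dimmer was at background on all arrays. A second Plxna2 probe, listed on chromosome 14 in place of chromosome 1, was the only other of the 100 probes whose listed chromosome differed from that of its gene.

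The semaphorins, the largest family here, split between the fractions. Passed and higher in A+/G+ were Sema3a, Sema4a and Sema5a, while Sema5b, Sema6a and Sema6d passed and were higher in A-/G+. The other 14 ranged from -1.13 (Sema4c) to 1.31 (Sema3g). Sema4a, a membrane-bound ligand, measured 10.68, 10.22 and 10.48 in A+/G+ and 9.40, 8.69 and 8.56 in A-/G+, a difference of 1.58 (SE 0.269, adjusted p = 0.0327, limma). Sema3a, the secreted ligand of neuropilin 1, measured 7.15, 7.43 and 7.32 in A+/G+ and 6.46, 6.23 and 5.70 in A-/G+, a difference of 1.17 (SE 0.218, adjusted p = 0.0401, limma). All A+/G+ arrays lay above all A-/G+ arrays for both genes. The second Sema3a probe, detected on all 6 arrays, overlapped between the fractions at 6.28 to 6.66 against 5.74 to 6.66, with a difference of 0.27 (adjusted p = 0.579, limma). With the mean of its probes Sema3a did not pass (difference 0.72, adjusted p = 0.103, limma).

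The class 5 semaphorins, transmembrane proteins with thrombospondin repeats, went in opposite directions. Sema5a measured 8.16, 8.43 and 7.96 in A+/G+ and 7.08, 6.83 and 7.41 in A-/G+ (difference 1.07, SE 0.197, adjusted p = 0.0392, limma). Sema5b measured 9.57, 9.95 and 9.81 in A+/G+ and 10.90, 10.82 and 10.59 in A-/G+ (difference -1.00, SE 0.137, adjusted p = 0.02, limma). Neither gene overlapped between the fractions. All 3 Sema5b probes were detected on every array, and each passed on its own, with differences of -1.00, -0.79 and -1.35.

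In class 6, transmembrane ligands that can also act as receptors, Sema6a and Sema6d were higher in A-/G+. Sema6a, known for its part in the migration of granule cells, measured 9.27, 9.31 and 9.24 in A+/G+ and 10.48, 10.33 and 9.97 in A-/G+ (difference -0.99, SE 0.145, adjusted p = 0.0231, limma), and its second probe gave -1.31 (adjusted p = 0.0494, limma). Sema6d measured 8.16, 8.01 and 8.17 in A+/G+ and 8.91, 8.76 and 8.57 in A-/G+ (difference -0.63, SE 0.109, adjusted p = 0.0333, limma). That probe carries a G and T run, and a second Sema6d probe without one gave -0.64 (adjusted p = 0.0443, limma), nearly the same size. Sema6b and Sema6c lay higher in A+/G+, by 1.20 and 0.67, and did not pass. Class 6 thus held values on both sides, with each probe of the 2 genes that passed showing the same direction.

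**Figure D2:**
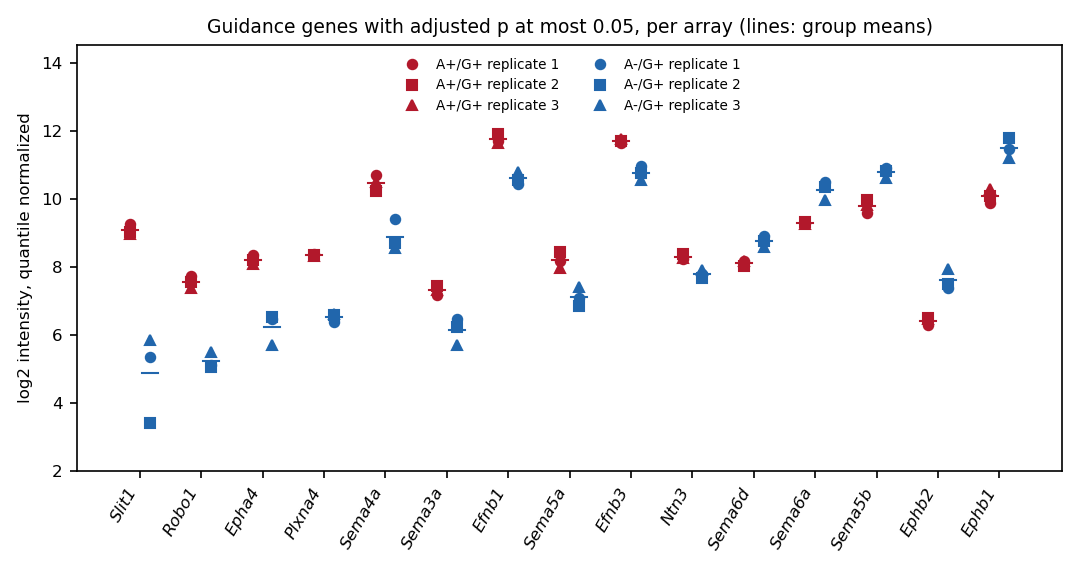
Log2 intensity of the 15 genes with an adjusted p of at most 0.05 on each of the 6 arrays, ordered by the difference, with lines at the group means. The groups of points do not overlap for any of them, which the choice by the adjusted p of 3 arrays against 3 makes nearly certain. The A-/G+ values of Slit1 spread from 3.41 to 5.85, and the A+/G+ arrays of Plxna4 lie within 8.32 to 8.37.

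Among the plexins, the receptors of the semaphorins, Plxna4 was higher in A+/G+ with the smallest adjusted p of the guidance genes. It measured 8.37, 8.34 and 8.32 in A+/G+ and 6.38, 6.58 and 6.62 in A-/G+, a difference of 1.82 (SE 0.0803, adjusted p = 0.00308, limma). The medians lay 3.41-fold apart, under the 4-fold limit. The second Plxna4 probe was detected on 1 of the 6 arrays. With the mean of its probes Plxna4 did not pass (difference 1.41, adjusted p = 0.0898, limma). All 9 plexins were detected on every array, and the other A-type plexins lay on the opposite side, with Plxna1 at -0.93, Plxna2 at -0.94 and Plxna3 at -0.27, none of which passed. The B-type plexins overlapped between the fractions, with differences of 0.14 for Plxnb1, 0.07 for Plxnb2 and 0.09 for Plxnb3. Plxnc1, the receptor of semaphorin 7A, measured 9.32, 9.39 and 8.99 in A+/G+ and 7.67, 7.65 and 8.47 in A-/G+, and just missed the limit (difference 1.30, adjusted p = 0.0525, limma).

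The neuropilins, which bind class 3 semaphorins together with A-type plexins, lay higher in A+/G+ without passing. Nrp2 measured 9.74, 9.72 and 9.74 in A+/G+ and 8.84, 7.84 and 9.02 in A-/G+ (difference 1.17, adjusted p = 0.108, limma). Nrp1 was detected on all A+/G+ arrays, at 4.90 to 4.92, and on no A-/G+ array. A gene detected on no array of a fraction has only a bound there, the mean over arrays of the lowest detected signal or of its own signal where that was higher, and for Nrp1 the bound is not below the A+/G+ level, so no fold is given. The ligand Sema3a and the plexin Plxna4 passed in the direction of the neuropilins, which themselves did not pass.

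In the Eph system, the ephrin-B ligands and the EphB receptors that passed lay on opposite sides. Efnb1 and Efnb3 were higher in A+/G+, whereas Ephb1 and Ephb2 were higher in A-/G+. Efnb1 measured 11.70, 11.91 and 11.62 in A+/G+ and 10.42, 10.56 and 10.79 in A-/G+ (difference 1.15, SE 0.131, adjusted p = 0.0132, limma). Efnb3 measured 11.64, 11.69 and 11.76 in A+/G+ and 10.97, 10.75 and 10.54 in A-/G+ (difference 0.94, SE 0.123, adjusted p = 0.0181, limma). Both ligands separated the fractions on every array. Efnb2, the remaining ephrin-B, went the other way at 9.14, 9.27 and 9.15 against 9.97, 9.82 and 9.56, and just missed the limit (difference -0.60, SE 0.124, adjusted p = 0.0515, limma).

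Ephb1 measured 9.86, 10.07 and 10.28 in A+/G+ and 11.46, 11.78 and 11.19 in A-/G+, the largest difference among the genes that passed toward A-/G+ (-1.41, SE 0.192, adjusted p = 0.0198, limma). Ephb2 measured 6.27, 6.49 and 6.46 in A+/G+ and 7.37, 7.49 and 7.92 in A-/G+ (difference -1.19, SE 0.167, adjusted p = 0.0211, limma). No A+/G+ array reached the A-/G+ arrays for either receptor. Ephb4 and Ephb6, the latter a receptor without kinase activity, gave 0.18 and 0.06, and Ephb3, read by a probe with a G and T run, gave -0.43, none of which passed. A second Ephb4 probe gave -0.83 (adjusted p = 0.0854, limma) and so differed in sign from the brighter one. Of the 5 EphB receptors, 2 thus passed toward A-/G+ and 0 toward A+/G+.

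Of the 9 EphA receptors, 8 lay higher in A+/G+ by their brightest probe, and 1, Epha4, passed. With the shift by the 75th percentile, 6 of the 9 lay higher in A+/G+. Epha4, which binds ligands of both ephrin classes, measured 8.35, 8.19 and 8.08 in A+/G+ and 6.46, 6.51 and 5.69 in A-/G+ (difference 1.99, SE 0.252, adjusted p = 0.0168, limma). Epha3 measured 6.06, 6.04 and 5.67 in A+/G+ and 2.45, 4.19 and 5.35 in A-/G+, where it was detected on 1 array (difference 1.93, adjusted p = 0.227, limma). Epha7 gave 0.33 by its brightest probe (adjusted p = 0.156, limma) and 0.24 by the next. Its dimmest probe passed toward A+/G+ at 5.29, 5.18 and 4.95 against 4.11, 3.32 and 3.85 (difference 1.38, adjusted p = 0.032, limma), was detected on no A-/G+ array and lay at least 1.20-fold above the bound. With the mean of its probes Epha7 passed. The ephrin-A ligands did not pass in limma (1 of 5 had an unadjusted p under 0.05), and their differences ranged from -0.25 (Efna4) to 0.77 (Efna5).

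The probes of Epha5 disagreed in sign, and 1 of the 3 met both limits. By the brightest probe, printed above with its G and T run, it measured 9.97, 9.70 and 9.87 in A+/G+ and 10.97, 10.76 and 10.24 in A-/G+ (difference -0.81, SE 0.214, adjusted p = 0.0904, limma). Probe 2 measured 8.41, 8.17 and 8.07 in A+/G+ and 5.30, 5.67 and 6.28 in A-/G+, and met both limits toward A+/G+ (difference 2.46, SE 0.275, adjusted p = 0.0128, limma). Probe 3 measured 7.04, 6.74 and 6.71 in A+/G+ and 2.27, 4.57 and 5.32 in A-/G+ (difference 2.78, SE 0.834, adjusted p = 0.123, limma). Every array thus separated the fractions by each probe, but toward A-/G+ for the probe with the run and toward A+/G+ for both probes without it. On A-/G+ arrays, probe 2 was detected on 2 and probe 3 on 1.

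Probes with a G and T run moved together over the whole array, also outside the guidance families. Of the 70 such probes of other genes that were detected on all 6 arrays, 70 were lower in A+/G+. Their median difference was -1.00 and the quartiles were -1.06 and -0.89. Among the 17883 detected probes without a G and T run, 60.4% were lower in A+/G+, and the median was -0.11. None of the 70 passed in limma, although 61 of them had an unadjusted p under 0.05, as did 28.3% of the detected probes without a run in the same direction. Relative to the A+/G+ mean of each probe, the median of the 70 was 0.12, -0.15 and 0.03 on the A+/G+ arrays and 1.44, 1.12 and 0.39 in A-/G+ replicates 1, 2 and 3. The 4 probes of the guidance families with a run gave -1.13 for Sema4c, -0.81 for Epha5, -0.63 for Sema6d and -0.43 for Ephb3. Each of them was likewise highest on A-/G+ replicate 1 and lowest of the A-/G+ arrays on replicate 3. That order was not particular to the run. All Sema5b and Sema6a probes and the second Sema6d probe, which hold no such run, showed it too, while those of Ephb1 and Ephb2 did not. Sema4c, a membrane-bound semaphorin, measured 11.75, 11.51 and 11.66 in A+/G+ and 13.28, 12.98 and 12.04 in A-/G+ (adjusted p = 0.127, limma). Of the 4 guidance genes read by a probe with a run, Sema4c and Ephb3 have no second probe. Probes with runs of other alternating pairs, detected on all 6 arrays, were lower in A+/G+ as well, with medians of -0.45 over 31 probes with A and C, -1.13 over 9 with A and G and -1.07 over 10 with C and T, and none of these lies in a guidance gene. The part of the run in the values of the 4 guidance genes was not tested.

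**Figure D3:**
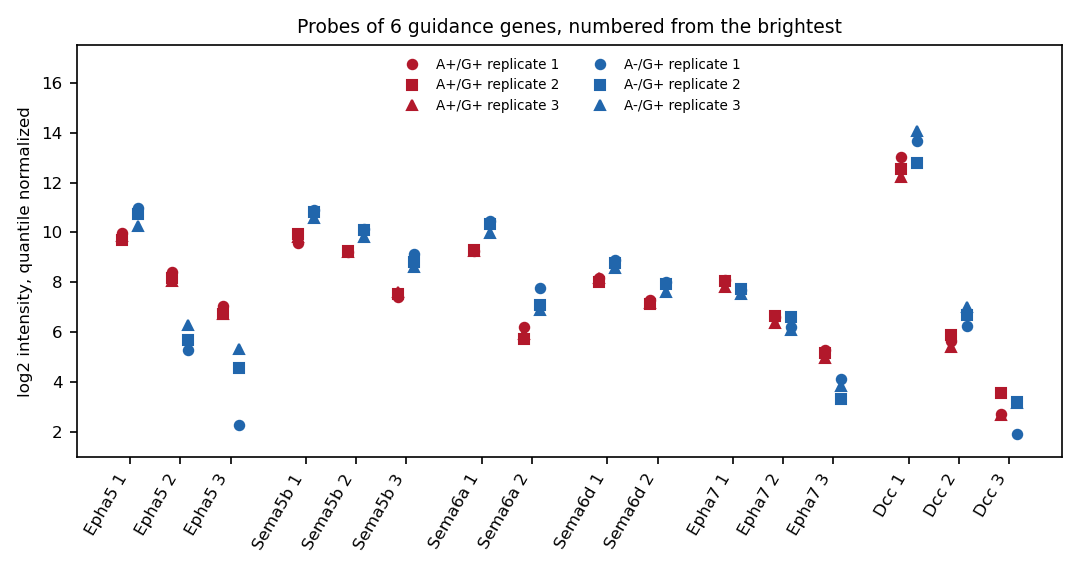
Log2 intensity per array for each probe of Epha5, Sema5b, Sema6a, Sema6d, Epha7 and Dcc, numbered from the brightest probe of the gene, without any order to be read between probes. The A-/G+ points lie above the A+/G+ points for every Sema5b, Sema6a and Sema6d probe, whereas the Epha5 probes go in opposite directions.

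Of the 26 guidance genes with several probes, 19 had the same sign for all of them. The other 7 were Dcc, Efna3, Epha5, Epha10, Ephb4, Robo3 and Sema4f. Where at least 2 probes were detected on all 6 arrays, which was the case for 8 genes, the signs of these probes were alike in 7. The exception was Ephb4. Probes for 1 gene share their target and are not further replicates.

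A-/G+ replicate 3 stood apart from the other A-/G+ arrays for several guidance genes and lay near the A+/G+ arrays. These genes were chosen after their values had been seen. Replicate 3 was also the A-/G+ array nearest to A+/G+ in overall signal. Before normalization, the 75th percentile of intensity was 56.6, 113 and 251 in A-/G+ replicates 1, 2 and 3, and 332 to 334 in A+/G+. The part of this overall signal in the values of the guidance genes was not tested. Plxnd1, a plexin of blood vessels, measured 10.86, 10.81 and 10.96 in A+/G+ and 8.47, 8.67 and 10.49 in A-/G+. Robo4 measured 10.13, 10.07 and 10.52 in A+/G+ and 8.27, 8.30 and 10.04 in A-/G+. Epha8 measured 10.64, 10.57 and 10.28 in A+/G+ and 7.36, 7.73 and 10.15 in A-/G+. In each, replicates 1 and 2 were close together while replicate 3 fell just under the lowest A+/G+ array. For Sema3g, a class 3 semaphorin of vessels, it lay within the A+/G+ range, at 6.31, 6.90 and 6.69 against 4.66, 4.42 and 6.89.

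With all 6 arrays, none of these genes passed. Without A-/G+ replicate 3, Plxnd1 differed by 2.31 (adjusted p = 0.00492), Robo4 by 1.96 (adjusted p = 0.0102), Epha8 by 2.95 (adjusted p = 0.00686) and Sema3g by 2.09 (adjusted p = 0.0139, all limma). Unc5a and Unc5b then also met both limits, with 2.69 and 2.08. The numbers of guidance genes that passed became 19 toward A+/G+, against 11.9% of all gene symbols, and 11 toward A-/G+, against 9.14%. Called were then 7 toward A+/G+, against 4.26%, and 0 toward A-/G+, against 0.735%. The 7 were Slit1, Robo1, Plxnd1, Epha8, Sema3g, Unc5a and Unc5b. In this fit the A-/G+ fraction has 2 arrays. Plxnd1, Robo4, Epha8 and Sema3g were chosen because replicate 3 stood apart from replicates 1 and 2. Their adjusted p values without it follow from that choice and cannot be read as support.

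Replicate 3 was the highest of the A-/G+ arrays for 40 of the 69 guidance genes (58.0%), compared with 28.7% of all gene symbols. Among genes detected on all 6 arrays, it was highest for 24 of 47 guidance genes (51.1%), compared with 34.4% of 11256 gene symbols. Of 13 cell type lists, 4 had their highest A-/G+ sum of normalized intensity on replicate 3, namely the endothelial, neuronal, oligodendrocyte and erythroid lists. The other 9 had it on replicate 1 or 2, the pericyte list among them, which was lowest on replicate 3 at 5053, 4828 and 4568. Notch3 alone made up 42.7% to 81.3% of a pericyte sum, so the order of that sum over the arrays can be that of 1 gene. The same limit holds for the erythroid list, with 61% to 67.9% from Hba-a1, and for the oligodendrocyte list, with 7% to 56.5% from Olig1. The brightest gene made up 27.7% to 42.5% of an endothelial sum (Cldn5) and 19.7% to 40% of a neuronal sum (Ncam1). All 12 genes of an endothelial list lay higher in A+/G+, 1 of them (Cdh5) passed, and their sum was 13496 to 19922 in A+/G+ and 3407, 3859 and 14167 in A-/G+. Cldn5, a tight junction protein of brain endothelium, measured 12.39, 12.67 and 13.04 in A+/G+ and 9.88, 10.15 and 12.52 in A-/G+. Each of the 12 was detected on at least 1 array of either fraction. The neuronal sums in A-/G+ were 17747, 17211 and 25656, the oligodendrocyte sums 4446, 4741 and 8244 and the erythroid sums 5482, 3459 and 11088. The part of any of these cells in the guidance genes' values was not tested.

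**Figure D4:**
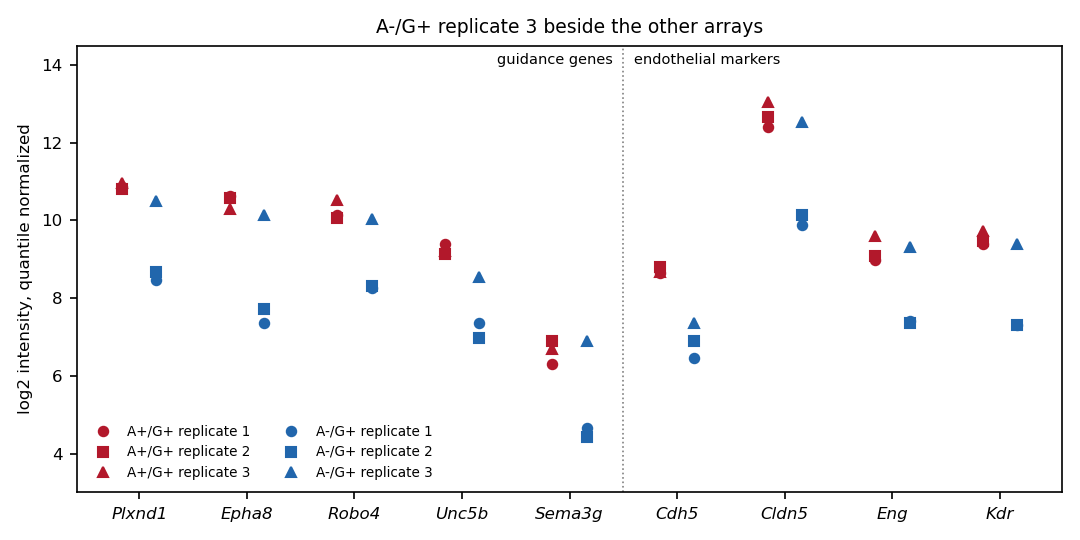
Log2 intensity per array for 5 guidance genes on the left and 4 endothelial markers on the right, with red for A+/G+, blue for A-/G+ and a triangle for replicate 3. The A-/G+ triangle lies near the red points for Plxnd1, Epha8, Robo4 and Sema3g and for Cldn5, Eng and Kdr, while the A-/G+ circle and square lie lower. Also plotted are Unc5b, with the A-/G+ triangle at 8.55 against 9.13 to 9.39 in A+/G+, and Cdh5, which passed with all 6 arrays. The 4 markers were picked from a list of 12.

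Markers of other cell types also differed between the fractions. Their counts stand beside 7.54% of all gene symbols that passed toward A+/G+ and 5.10% toward A-/G+. Of the 12 general astrocyte genes, 6 passed toward A+/G+ and 1 (Aldh1l1) toward A-/G+, with sums of 131775 to 146127 in A+/G+ and 86548 to 131787 in A-/G+. Atp1b2, which encodes the antigen used for the sort, was 1 of the 6, so its direction was set by the sort. Called among the 12 were Fgfr3 (4.58, adjusted p = 0.0181), Gfap (3.03, adjusted p = 0.0182) and Gja1 (3.03, adjusted p = 0.0038, all limma), the last a gap junction protein of astrocytes. Of 12 Purkinje cell genes, 6 passed toward A+/G+ and 1 toward A-/G+, with sums of 6089 to 15156 in A+/G+ and 2284 to 2799 in A-/G+. Of 12 genes of meningeal fibroblasts, 12 lay higher in A+/G+ and 5 passed, with sums of 91566 to 111269 against 15271 to 44509. Of 12 genes of cells with motile cilia, 8 passed toward A+/G+, with sums of 7024 to 10298 against 1968 to 6561. Mcidas alone made up 15.9% to 83.9% of a ciliary sum. In A-/G+, Calb1, Car8, Foxp2, Skor2 and Ppp1r17 of the Purkinje list and Dnah5 of the ciliary list were not detected on any array. Ppp1r17 was not detected on any A+/G+ array either. The oligodendrocyte list passed in 3 of 12 genes toward A+/G+ and in 2 toward A-/G+, with sums of 16645 to 20089 against 4446 to 8244. The pericyte list passed in 4 of 10 genes toward A+/G+, with sums of 7852 to 8218 against 4568 to 5053.

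Toward A-/G+, where Ephb1, Ephb2, Sema5b, Sema6a and Sema6d were higher, other lists differed. Of 12 genes of Bergmann and radial glia, 9 passed toward A-/G+ and 1 toward A+/G+, with differences down to -3.66 (Mybpc1). Their sums were 97838 to 153016 in A-/G+ and 110616 to 117272 in A+/G+, and 66.8% to 79.0% of a sum came from Fabp7 alone, which gave 0.06. The Bergmann list includes Mybpc1, Npy, Gria1, Gdf10 and Wif1, which the study had named as A-/G+ genes from these same arrays. Its counts are therefore not independent of the study's result. Of 13 genes of the granule neuron lineage, Pax6 (-1.54) and Zic2 (-2.09) passed toward A-/G+, while 8 lay higher in A+/G+ without passing, among them Atoh1 (1.29) and Barhl1 (1.10). The sums of that list were 36793 to 38840 in A-/G+ and 25499 to 30072 in A+/G+, of which Zic1 alone (-0.60, adjusted p = 0.0803, limma) made up 52.3% to 71.1%.

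Other lists were divided between the fractions or held no gene that passed. Among the genes of the GABAergic interneuron lineage that passed were Gad1 (2.69) and Slc32a1 (2.84) toward A+/G+ and Ptf1a (-2.69) toward A-/G+. Of 15 neuronal genes, 0 passed in limma and 11 lay higher in A+/G+, with sums of 23447 to 36226 in A+/G+ and 17211 to 25656 in A-/G+. Of 8 erythroid genes, 0 passed in limma, but the sums did not overlap, at 13092 to 23703 in A+/G+ against 3459 to 11088 in A-/G+, and the globins Hba-a1, Hbb-b1 and Hbb-bt gave 1.57, 2.12 and 1.84. Hba-a1 alone made up 61% to 67.9% of an erythroid sum. Of 12 microglial genes, 0 passed in limma and 9 lay higher in A-/G+, with sums of 1543 to 2577 against 2198 to 4645. The part of any of these cell types in the values of the guidance genes was not tested.

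Other genes of guidance pathways were read from 3 lists that hold 60 genes in all, of which 44 were detected on all 6 arrays. Of the 60, 8 passed toward A+/G+, against 7.54% of all gene symbols, and 5 toward A-/G+, against 5.10%. Among gene symbols detected on all 6 arrays, 18.9% passed in either direction. Among 10 coreceptors and adhesion molecules, Alcam, an adhesion molecule of the immunoglobulin family, was called toward A+/G+ at 10.23, 10.05 and 9.85 against 8.69, 7.80 and 7.41 (difference 2.08, adjusted p = 0.0334, limma). Cntn1 passed toward A-/G+ by -0.73, and Met passed toward A+/G+ by 0.93 although it was detected on none of the 6 arrays. Among 15 further ligands and receptors, Cxcr4, the receptor of the chemokine Cxcl12, was called toward A-/G+ at 6.90, 7.40 and 7.61 against 9.53, 9.55 and 8.51 (difference -1.89, adjusted p = 0.0437, limma). Its ligand Cxcl12 passed in the opposite direction, at 11.82, 11.93 and 11.81 against 10.61, 9.41 and 9.97 (difference 1.85, adjusted p = 0.0327, limma). A ligand and its receptor were thus higher in opposite fractions, as with Efnb1 and Efnb3 against Ephb1 and Ephb2. Ntng2, a membrane-bound netrin relative, was not detected in A+/G+, and A-/G+ lay at least 3.49-fold above the bound (limma adjusted p = 0.0399).

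Of 35 intracellular effectors, 5 passed toward A+/G+ (7.54% of all gene symbols) and 2 toward A-/G+ (5.10%). Ablim3, which binds actin, was called toward A+/G+ at 9.68, 8.24 and 8.34 against 6.64, 5.87 and 5.97 (difference 2.59, adjusted p = 0.0389, limma). Mical2, an oxidase that disassembles actin filaments and belongs to a family of plexin effectors, was also called (adjusted p = 0.0236, limma), but it was not detected in A-/G+ and the bound is at least 1.01-fold. Ngef, an exchange factor that works downstream of EphA receptors, passed toward A+/G+ by 1.71 (adjusted p = 0.0331, limma), as did Chn1, a GTPase-activating protein in the pathway of Epha4, by 1.42 (adjusted p = 0.0188, limma), and Dock1 by 0.57. Toward A-/G+, the collapsin response mediators Dpysl5 and Dpysl3, which relay semaphorin signals, passed by -1.37 (adjusted p = 0.0131, limma) and -0.77 (adjusted p = 0.0205, limma). Epha4, Ngef and Chn1 thus passed in the same direction.

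How many arrays carried each result differed between the genes. When each array was left out in turn, Plxna4 and Robo1 passed in all 6 fits. Without any single A+/G+ array these were the only ones of the 15 that remained, when 3.06% to 3.93% of all gene symbols passed. Without A-/G+ replicate 1, 9 of the 15 passed, and those that did not were Ephb1, Ntn3, Sema5a, Sema5b, Sema6d and Slit1. Without A-/G+ replicate 2, 6 of the 15 passed, namely Efnb1, Epha4, Ephb1, Plxna4, Robo1 and Slit1, and without replicate 3 all 15 did. The adjusted p of Slit1 reached 0.112 in these fits, with a difference between 3.48 and 4.70. All 15 differences kept their direction in each of them, which was fixed beforehand because the arrays of the fractions did not overlap for any of the 15.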

How the data were processed

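RNA from 3 A+/G+ and 3 A-/G+ samples was amplified, labeled with Cy3 and hybridized to Agilent mouse arrays. The authors deposited background-corrected spot intensities from Feature Extraction 10.7.3.1, and a table of quantile normalized log2 values by the authors, used here as an alternative. Intensities were log2 transformed without control and outlier spots, quantile normalized and averaged per probe.

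All 55681 probes entered 1 fit with limma (version 3.58.1, R version 4.3.3) of the 2 fractions, with Benjamini-Hochberg adjustment. The limits (adjusted p at most 0.05, medians at least 4-fold apart) follow the study's methods, which used Student's test. A gene was read from the probe whose mean over the 6 arrays was highest. Probe positions and names are the array's (mm9), and RefSeq (GRCm38.p6) held all 69 symbols. Called genes are named with their value on each array, the others that passed with their difference, and the rest by family, with exceptions chosen after their values were seen. Cell type and pathway lists, like the members, were chosen with earlier results of these data known. A gene of the interneuron list is not reported here.

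Alternatives were a shift by the 75th percentile, normexp background correction (offset 50), the authors' table, only probes above background, the methods' t-test, a trended and robust variance in limma, outlier spots kept, the mean of a gene's probes, a 2-fold limit, a replicate block, and 1 array fewer at a time. A slide block could not be fitted. The fit was tested on simulated data. The number of arrays limits the precision.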

Additional observations from a re-analysis of the deposited data

How the results depend on the processing

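With 10 guidance genes passed toward A+/G+ and 5 toward A-/G+, the shift by the 75th percentile gave 6 and 2 (against 4.06% and 3.26% of all gene symbols) and the methods' t-test with Benjamini-Hochberg adjustment 5 and 0 (3.99% and 2.63%). Averaging the probes of each gene gave 12 and 8 (8.97% and 6.51%), and leaving out each array 2 to 19 and 0 to 11 (2.20% to 11.9% and 0.840% to 9.14%). Called toward A+/G+ were 2 genes. Normexp background correction (0.798% of all gene symbols) and the mean of all probes (2.83%) each gave 1, Slit1, and the methods' t-test (1.52%) gave 1, Robo1. Leaving out each array gave 1 to 7 (1.02% to 4.26%), and without any single A+/G+ array the 1 was Robo1. A 2-fold limit on the medians gave 8 (5.23%), with 4 toward A-/G+ (1.97%) in place of 0. With the replicate number as a block in limma, 0 genes passed and 0 were called toward either fraction, as over all gene symbols (0 of 23823), with 19 and 10 guidance genes at an unadjusted p under 0.05 (14.7% and 12.4% of all gene symbols), and 15 and 9 for the methods' t-test (14.4% and 14.0%). Whether samples of the same number are pairs could not be decided. In their deviations from the group means, same-numbered samples correlated at 0.20, 0.11 and -0.11, and samples of different numbers at -0.24 to 0.17. Deviations from means of 3 arrays depend on each other, so these few values cannot exclude pairing. Epha5 turned to 1.48 (adjusted p = 0.0366, limma) with the mean of its probes and to 2.46 (adjusted p = 0.0128, limma) with the brightest probe without a G and T run, an alternative chosen after seeing the data. Of 225 values of the 15 genes under other settings, 136 stayed on the same side of the limit, 89 no longer passed and 0 changed direction. For the direction, most of these settings could give no other outcome. A change of the variance, the test, the block or the probe filter leaves the difference as it is. Leaving out 1 array cannot reverse fractions whose arrays do not overlap, as held for all 15 genes. Genes near background in A-/G+, where fewer probes were well above it, are the least precise.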
